A study of Mus musculus with 7 samples.

Results

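Messenger RNA of 38 chromatin regulators was compared in the optic nerve between control mice and mice that lack the fatty acid synthase gene Fasn in cells of the oligodendrocyte (OL) lineage. The regulators were taken by gene name from a table of 22880 genes, and all 38 were found there. They are the 11 zinc-dependent histone deacetylases, 5 SWI/SNF subunits, 3 further remodelers, 3 histone acetyltransferases, 4 subunits of Polycomb repressive complex 2 (PRC2), 4 proteins of DNA methylation, 3 TET dioxygenases, 2 BET readers, Kdm1a, Prmt5 and Yy1.

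Histone acetylation opens chromatin and is written by acetyltransferases, read by bromodomain proteins and erased by deacetylases, whereas remodelers use ATP to move nucleosomes. PRC2 methylates histone H3 at lysine residues of repressed genes, and DNA methyltransferases and TET enzymes write and oxidise methyl marks on cytosine. In the OL lineage, deacetylases, the SWI/SNF ATPase Smarca4, Chd7, Chd8, Ezh2, DNA methyltransferases, Prmt5 and Yy1 have each been linked to the passage from progenitor (OPC) to myelinating cell. These genes are also used in other cells of the nerve.

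The nerves were taken at P14, during myelination, from 4 control mice (CT, FASN lox/lox) and 3 mutant mice (cMU, olig2cre FASN lox/lox), all labelled C57Bl/6, with both nerves of each mouse pooled as 1 sample. The samples are called CT1 to CT4 and MU1 to MU3. Both groups carry the floxed allele and only the mutants carry Cre under the Olig2 promoter, so the loss of Fasn and the presence of the Cre allele cannot be told apart. Each sample is whole tissue, in which OLs lie beside astrocytes, microglia, vessels and meninges.

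The samples held an estimated 27452222 to 43462575 reads. Fasn averaged 205 ± 25.1 FPKM (SD, n = 4) in control nerves and 56.3 ± 11.3 FPKM (SD, n = 3) in mutant nerves, in accord with the labels (adjusted p = 0.00312, limma-trend). FPKM scales fragments for gene length and library size, so levels compared between genes rest on the length listed for each gene. Smarca2 (2016 bases) and Smarca4 (5483 bases) had an estimated 3676 and 3452 reads in their lowest samples. These were 755 and 1226 for Ezh2 (1482 bases) and Ezh1 (4012 bases), and 1457 and 1526 for Hdac1 (925 bases) and Hdac2 (1931 bases). For Dnmt3a (2323 bases) and Dnmt1 (5499 bases) they were 5842 and 1051. Of 13866 genes tested, 175 were higher and 188 lower in mutant nerves at an adjusted p under 0.05, so 48.2% of the calls were higher. This split depended on the scaling, with 37.9% higher (136 against 223) after centring each sample on its median and 27.7% (102 against 266) on the normalized counts. The Y-linked transcripts Ddx3y and Eif2s3y stood at 37.3 to 43.2 FPKM in CT3 and CT4 and MU3 and at no more than 0.0568 FPKM in the other 4. Differences within these sets are given below for most members with larger changes. For 12 of 38 members the sign differed between the sets, namely Hdac2, Hdac3, Hdac5, Hdac10, Arid1a, Chd8, Ep400, Suz12, Uhrf1, Tet3, Kdm1a and Yy1.

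None of the 38 chromatin regulators passed the adjusted threshold in limma-trend, where 2.62% of all genes tested did. At an unadjusted p under 0.05, 4 of 38 were higher in mutant nerves (Hdac4, Hdac9, Smarca2 and Ezh1) against 15.9% of all genes, and 2 of 38 were lower (Chd7 and Ezh2) against 8.5% of all genes. Control and mutant samples did not overlap for 3 members with higher mutant values, Hdac4, Smarca2 and Ezh1 (12.9% of all genes), and for 3 with lower mutant values, Chd7, Dnmt3b and Prmt5 (8.26% of all genes). These shares, 7.89% of the members in each direction, were below or near the background.

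The log2 fold changes of the 38 members, on log2(FPKM + 0.5), ran from -0.26 (Hdac1) to 0.39 (Hdac4) with a median of 0.0051, beside 0.048 over all genes tested. The median size of the change, regardless of direction, was 0.095 for the members and 0.14 for all genes. All genes include many low ones, and the shares over all genes were not matched to the members for level. The 95% interval of the fold change lay within 0.5 of 0, on the log2 scale, for 33 of 38 members against 66.8% of all genes. The other 5 were Hdac1, Hdac4, Hdac9, Ezh1 and Tet2, for which a larger difference is inside the interval. A fit that blocked on the sample number left CT4 without a mutant partner, so its fold changes rest on the other samples. In that fit 0 of 38 members passed, while the share of all genes that passed was 8.36% (1159 genes). At an unadjusted p under 0.05 that fit gave 8 of 38 members against 27.1% of all genes. On the normalized counts Chd7 alone passed, 1 of 38 with lower mutant values, against 1.92% of all genes.

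Levels of cell type markers differed between the same nerves. Summed over the list, myelinating OL markers reached 56849 to 64620 FPKM in control samples and 41399 to 53033 FPKM in mutant samples, with 2 of 10 genes past the threshold, both lower (0 with the replicate block). OPC markers summed to 427 to 475 FPKM and 309 to 375 FPKM, with 3 of 8 lower (3 with the block). The 3 were Cspg4, Gpr17 and Neu4. Pdgfra had a log2 fold change of -0.14 (adjusted p = 0.537, limma-trend), and Ptprz1 was at 0.076. Markers of newly formed OLs summed to 3607 to 3885 FPKM and 2359 to 2919 FPKM, with 2 of 8 lower (5 with the block). Gpr17 averaged 241 FPKM and Sirt2 2614.5 FPKM in control samples, a large part of the respective sums. The paper counts both among transcripts enriched in myelin-forming OLs. Astrocyte markers summed to 2910 to 3350 FPKM in control and 3764 to 4619 FPKM in mutant samples, with 4 of 8 higher (6 with the block). None of the 8 microglial, 6 endothelial, 6 meningeal fibroblast, 6 neuronal or 16 cell cycle markers passed in limma-trend without the block. At an unadjusted p under 0.05, 3 microglial, 4 endothelial, 3 fibroblast and 1 neuronal markers were higher and none lower, against 15.9% and 8.5% of all genes, and 1 cell cycle marker was lower. The fold change was positive for all 8 microglial, all 6 endothelial and all 6 fibroblast markers and for 5 of 6 neuronal ones. It was also positive for 60.1% of all genes tested. With the replicate block, 5 of 6 fibroblast, 2 of 6 endothelial, 1 of 8 microglial and 1 of 6 neuronal markers passed, all higher. In that fit 0 of 16 cell cycle markers passed, and 8.36% of all genes did, both directions together. MU1 had the highest value of all 6 fibroblast markers, with Col1a1 at 399 FPKM against 191 and 180 FPKM in MU2 and MU3. The median gene in MU1 also lay 0.064 (log2) above its mean over samples, the largest such deviation. No listed marker was at 0 in the control samples. Fewer cells of a type and less RNA per cell cannot be told apart in such tissue, and the part of these shifts in the values of the chromatin regulators was not tested.

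**Figure D1:**
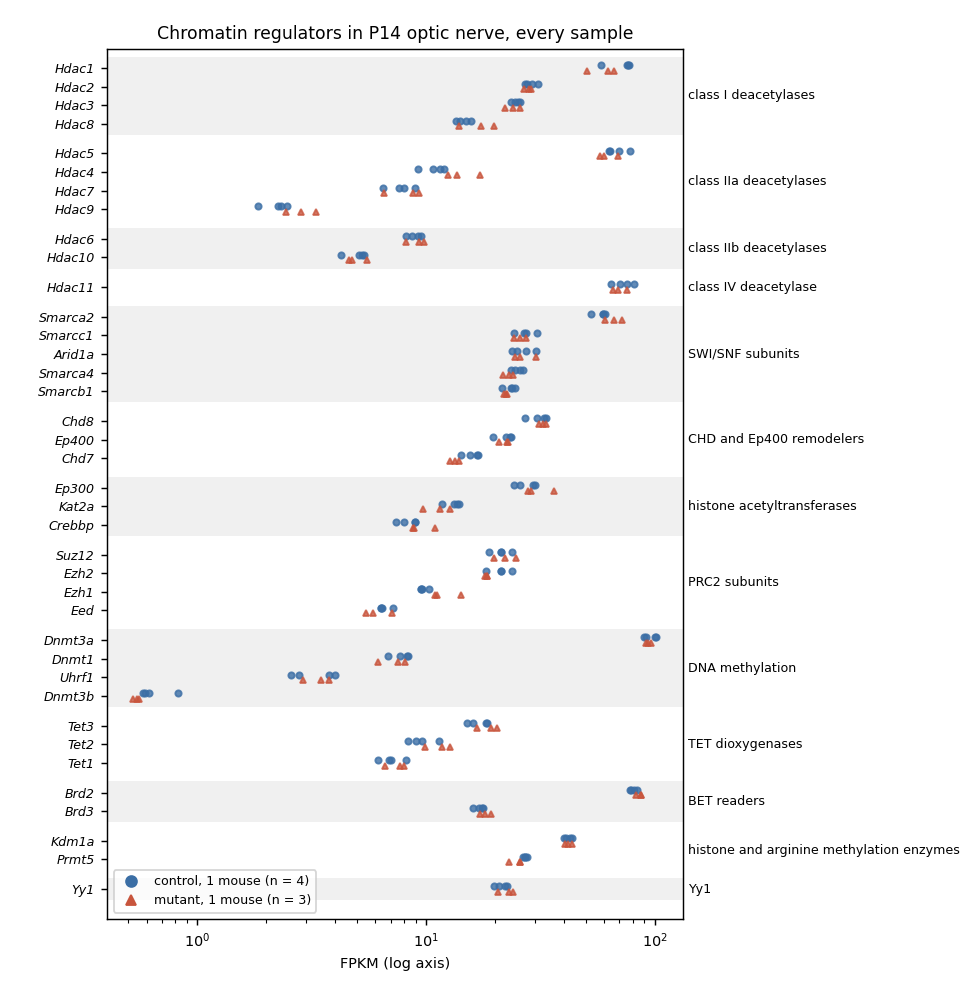
FPKM (log axis) of all 38 members in each of the 4 control samples (circles) and 3 mutant samples (triangles), grouped by class and ordered by control level. Levels span from below 1 FPKM for Dnmt3b to about 100 FPKM for Dnmt3a, and for most members the samples of both genotypes lie on top of each other.

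The deacetylases remove acetyl groups from histones and other proteins. Summed over the 11, they reached 305 to 329 FPKM in control samples and 287 to 307 FPKM in mutant samples. Most of this came from Hdac11, Hdac1 and Hdac5, at 23.1%, 22.7% and 21.8% of the control sum, which were not separable from each other in the control samples. The next, Hdac2, lay below all of them, 2.39-fold under Hdac5. Hdac9, at 0.704% of the sum, was the lowest.

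Among class I enzymes, the nuclear catalytic subunits of corepressor complexes, Hdac1 was the highest. Its FPKM was 76.8, 75.9, 75.9 and 58.0 in CT1 to CT4 and 62.3, 50.7 and 66.2 in MU1 to MU3. CT1 to CT3 lay above all mutant samples, and CT4 lay among them. The log2 fold change was -0.26 (standard error, SE, 0.12, adjusted p = 0.229), and it was -0.44 among samples without Y-linked transcripts and -0.0036 among those with them, where there was a single mutant. Leaving out 1 sample moved it from -0.36 without CT4 to -0.15 without MU2.

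Hdac2, the close paralogue of Hdac1, spanned 27.1 to 30.8 FPKM in control and 26.8 to 28.8 FPKM in mutant samples. Hdac3, the catalytic subunit of the NCoR complexes, spanned 23.6 to 25.8 FPKM and 22.2 to 25.8 FPKM. For both genes the groups overlapped, with log2 fold changes of -0.036 and -0.050 (for Hdac3, 0.0026 without MU2). For Hdac2 it was -0.12 among samples without and 0.074 among those with Y-linked transcripts. Hdac8, an X-linked enzyme that also acts on cohesin, spanned 13.5 to 15.7 FPKM in control and 13.9 to 19.7 FPKM in mutant samples. MU2 and MU3 were above every control sample and MU1 was not, and the log2 fold change was 0.21 (adjusted p = 0.295), with 0.069 and 0.46 within the sets without and with Y-linked transcripts. Without MU3 it was 0.098 and without MU1 it was 0.34.

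Class IIa enzymes shuttle between nucleus and cytoplasm and bind MEF2 factors. Hdac5, their highest member, had 63.8, 63.0, 69.4 and 78.2 FPKM in CT1 to CT4 and 68.9, 60.1 and 57.4 FPKM in MU1 to MU3. MU2 and MU3 were under the lowest control value and MU1 was among the controls (log2 fold change -0.14, adjusted p = 0.385, -0.076 without CT4, -0.085 without MU3 and -0.22 without MU1). Its direction was not held within the sets defined by Y-linked transcripts, with 0.022 without them and -0.36 with them.

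Hdac4 had the largest positive difference of the 38 in the main comparison. On GRCm38, as for all positions in the table, Hdac4 (ENSMUSG00000026313) lies on chromosome 1 from 91928779 to 92180341 on the minus strand. Its FPKM was 10.7, 9.24, 12.01 and 11.5 in CT1 to CT4 and 17.1, 12.5 and 13.7 in MU1 to MU3. All mutant samples were above all control samples, though MU2 exceeded CT3 by little. The means were 10.9 ± 1.21 FPKM (SD, n = 4) and 14.4 ± 2.41 FPKM (SD, n = 3), and the log2 fold change was 0.39 (SE 0.12, 95% interval 0.11 to 0.67, adjusted p = 0.112). It was 0.53 without and 0.21 with Y-linked transcripts. Leaving out 1 sample at a time gave 0.26 to 0.48.

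Hdac9 stood at 2.22 ± 0.268 FPKM (SD, n = 4) in CT and 2.86 ± 0.441 FPKM (SD, n = 3) in cMU nerves. MU2, at 2.43 FPKM, was just below CT2, at 2.48 FPKM, and the other mutant samples were above all controls (log2 fold change 0.30, adjusted p = 0.199). The fold change of Hdac9 was 0.13 among samples without and 0.56 among those with Y-linked transcripts. Hdac7, better known from vessels, spanned 6.45 to 8.96 FPKM in control and 6.54 to 9.32 FPKM in mutant samples. It overlaps Slc48a1 on the other strand, and its log2 fold change of 0.072 turned to -0.0017 on the normalized counts.

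The mainly cytoplasmic class IIb enzymes were low. The X-linked Hdac6, the tubulin deacetylase, had 8.16, 8.65, 9.50 and 9.25 FPKM in CT1 to CT4 and 9.27, 8.19 and 9.79 FPKM in MU1 to MU3. Hdac10, a polyamine deacetylase, spanned 4.24 to 5.34 FPKM and 4.61 to 5.52 FPKM. The groups overlapped for both, and the log2 fold changes of 0.028 and -0.0055 took the other sign under some settings. Hdac11, the single class IV enzyme and a defatty-acylase, had 70.6, 75.9, 80.8 and 64.4 FPKM in CT1 to CT4 and 65.5, 75.4 and 69.3 FPKM in MU1 to MU3. Every mutant sample was within the control range (log2 fold change -0.054, 95% interval -0.25 to 0.14).

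SWI/SNF complexes contain either of the ATPases Smarca4 (BRG1) and Smarca2 (BRM). Smarca2 was the higher in every sample, and its gene (ENSMUSG00000024921) lies on chromosome 19 from 26605115 to 26778321 on the plus strand. Its FPKM was 60.5, 52.4, 59.4 and 59.3 in CT1 to CT4 and 72.1, 60.8 and 66.4 in MU1 to MU3. The mutant samples were all above the controls, but MU2 and CT1 nearly met. The means were 57.9 ± 3.71 FPKM (SD, n = 4) and 66.4 ± 5.63 FPKM (SD, n = 3), with a log2 fold change of 0.20 (SE 0.078, 95% interval 0.020 to 0.37, adjusted p = 0.166). The fold change was 0.23 without and 0.16 with Y-linked transcripts.

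Smarca4 spanned 23.6 to 26.6 FPKM in control and 21.7 to 24.1 FPKM in mutant samples (log2 fold change -0.12, adjusted p = 0.292). MU2 and MU3 were below every control sample. The core subunits Smarcc1 and Smarcb1 and the DNA-binding subunit Arid1a were close to Smarca4 in level, with overlapping control ranges. Their log2 fold changes were -0.078, -0.064 and 0.0045, with mutant values of 24.3 to 27.2, 21.8 to 22.5 and 24.4 to 30.1 FPKM inside the control ranges. Smarcc1 overlaps Dhx30 on the other strand, and the sign of Arid1a turned on both other scalings.

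Chd7 and Chd8 are chromodomain remodelers mutated in developmental disorders, and Ep400 is the ATPase of the TIP60 complex. Chd7 (ENSMUSG00000041235) lies on chromosome 4 from 8690406 to 8867659 on the plus strand. It had 16.9, 14.2, 15.6 and 16.7 FPKM in CT1 to CT4 and 13.3, 12.8 and 13.97 FPKM in MU1 to MU3. The 3 mutant values were under the lowest control value, with MU3 near CT2. The means were 15.8 ± 1.21 FPKM (SD, n = 4) and 13.4 ± 0.600 FPKM (SD, n = 3), or 84.3% of control. The log2 fold change was -0.24 (SE 0.079, 95% interval -0.42 to -0.057, adjusted p = 0.124), with -0.24 and -0.20 within the sets without and with Y-linked transcripts. On the normalized counts it was -0.32 and passed the threshold (adjusted p = 0.0477, limma-trend).

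Chd8, the highest of the 3, had 33.4, 27.2, 30.5 and 32.7 FPKM in CT1 to CT4 and 33.5, 32.4 and 31.0 FPKM in MU1 to MU3. MU2 and MU3 lay in the upper part of the control range and MU1 just above it (log2 fold change 0.064, -0.013 on the normalized counts). Ep400 spanned 19.5 to 23.4 FPKM and 20.9 to 22.7 FPKM (log2 fold change -0.0036, with either sign among the settings).

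Ep300 (p300) and Crebbp (CBP) are paralogous acetyltransferases and general coactivators. Ep300 had 29.9, 24.2, 25.8 and 29.5 FPKM in CT1 to CT4 and 36.4, 28.0 and 28.6 FPKM in MU1 to MU3. MU1 was above all others, and the other mutant samples were within the control range (log2 fold change 0.17, adjusted p = 0.370, 0.053 without MU1). Crebbp was similar, with MU1 at 10.98 FPKM, the other mutant samples at 8.74 and 8.82 FPKM and controls at 7.37 to 8.96 FPKM (log2 fold change 0.18, adjusted p = 0.338, 0.077 without MU1). Kat2a (GCN5), the acetyltransferase of SAGA, spanned 11.8 to 13.99 FPKM in control and 9.71 to 12.8 FPKM in mutant samples (log2 fold change -0.21, adjusted p = 0.248, -0.11 without MU2). Within the sets without and with Y-linked transcripts, the values were 0.24 and 0.052 for Ep300 and 0.26 and 0.053 for Crebbp. For Kat2a they were -0.15 and -0.25.

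**Figure D2:**
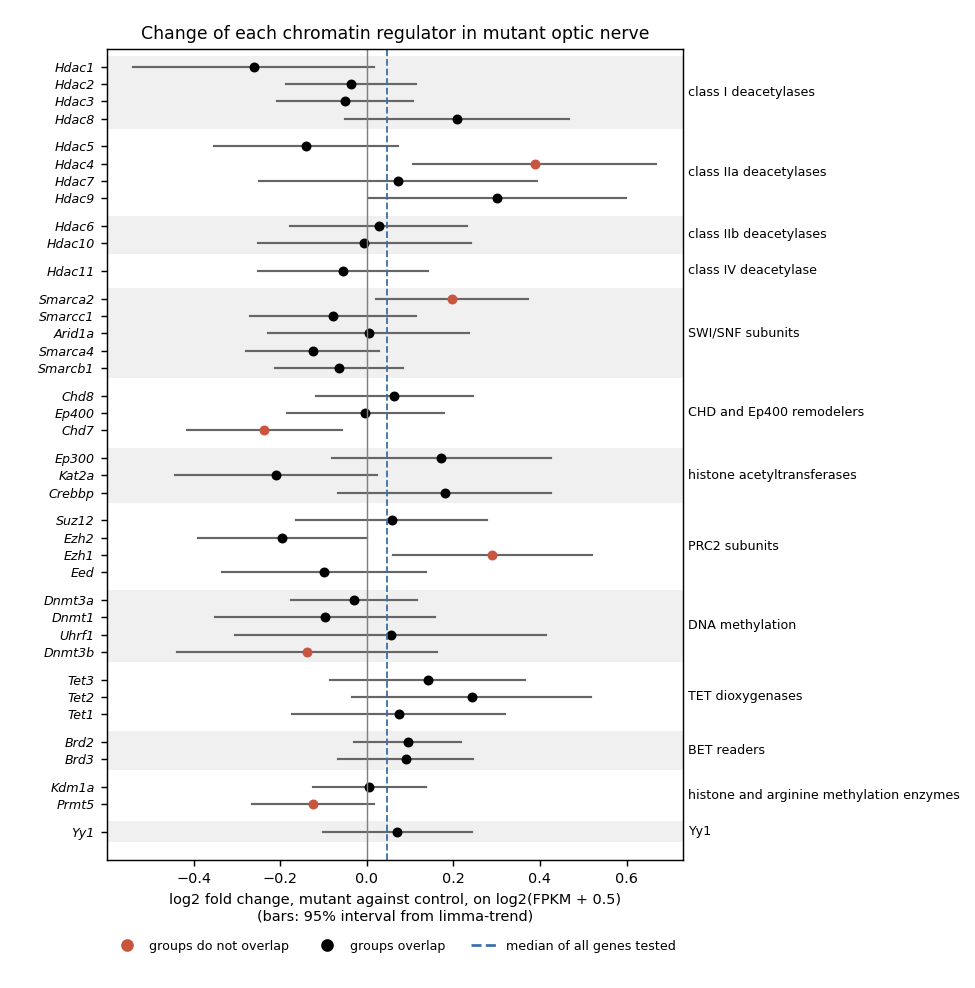
Log2 fold change of each member, mutant against control, with its 95% interval from limma-trend, grouped by class, where red points mark members whose groups do not overlap and the dashed line is the median of all genes tested, 0.048. Most intervals cross 0, and Hdac4 (0.39) and Hdac1 (-0.26) are the extremes.

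PRC2 holds Ezh2 or Ezh1 as catalytic subunit, with Eed and Suz12 as core partners. Ezh2 is typical of dividing progenitors and Ezh1 of differentiated cells. The promoter windows of this pair are shown because the log2 fold changes had opposite signs, -0.20 for Ezh2 and 0.29 for Ezh1. The Ezh2 values overlapped between the groups. Each runs from 250 bases before to 50 bases after the start in RefSeq on GRCm38.p6 and is given 5′ to 3′ on the minus strand, for Ezh2 at chr6:47594981-47595280 and for Ezh1 at chr11:101226414-101226713. Capitals mark matches, on either strand, to an E2F word (TTTCCCGC, TTTCGCGC, TTTGCCGC or TTTGGCGC) or to the YY1 word ATGGCG.
Ezh2: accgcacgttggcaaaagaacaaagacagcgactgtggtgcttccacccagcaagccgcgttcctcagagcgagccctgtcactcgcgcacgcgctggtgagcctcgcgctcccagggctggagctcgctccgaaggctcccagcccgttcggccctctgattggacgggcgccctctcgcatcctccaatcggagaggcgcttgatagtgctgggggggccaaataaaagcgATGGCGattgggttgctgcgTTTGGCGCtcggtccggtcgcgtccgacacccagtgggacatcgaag
Ezh1: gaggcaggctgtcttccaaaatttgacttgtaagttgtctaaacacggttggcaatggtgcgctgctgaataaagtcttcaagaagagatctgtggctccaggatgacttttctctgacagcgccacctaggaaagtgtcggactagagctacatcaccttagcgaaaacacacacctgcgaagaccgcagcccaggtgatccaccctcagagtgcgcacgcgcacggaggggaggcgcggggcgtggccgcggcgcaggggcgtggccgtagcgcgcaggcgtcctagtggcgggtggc

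The Ezh2 window held 31 CpG, 1 match to an E2F word at position 254 and 1 to the YY1 word at position 234, counted from 1 at the 5′ end. The Ezh1 window held 23 CpG and no match to either. Windows were matched for 34 of 38 members, and the E2F words were in 3 of these, Ezh2, Suz12 and Kat2a (8.82%, against 2.32% of 27025 genes). The YY1 word was in 5, Ezh2, Brd2, Chd8, Ep300 and Hdac11 (14.7% against 9.24%). The median window of the members held 28 CpG and 65.8% G and C, against 7 CpG and 52.7% over all genes. Each of these words contains CG, so the shares depend on CpG content, and no background matched for it was used. A match is a description of the letters, not a binding site, and no factor was measured.

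The FPKM of Ezh2 was 23.7, 21.3, 18.3 and 21.3 in CT1 to CT4 and 18.4, 18.1 and 18.5 in MU1 to MU3. The mutant samples lay close together at the bottom of the control range, and CT3 was among them. The log2 fold change was -0.20 (SE 0.086, adjusted p = 0.204), with -0.29 and -0.089 within the sets without and with Y-linked transcripts. Summed markers of cycling cells overlapped between the groups, at 129 to 165 FPKM in control and 132 to 145 FPKM in mutant samples. Pcna alone averaged 68.5 FPKM in control samples, a large part of that sum. Of the 16 markers, 7 had a positive and 9 a negative fold change. The part of cycling cells in the Ezh2 values was not tested.

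Ezh1 (ENSMUSG00000006920), on chromosome 11, spans 101191115 to 101226463 on the minus strand. It had 9.47, 9.61, 9.49 and 10.3 FPKM in CT1 to CT4 and 14.2, 10.9 and 11.1 FPKM in MU1 to MU3. All mutant samples were above all control samples, and MU1 stood apart from the other two. The means were 9.73 ± 0.413 FPKM (SD, n = 4) and 12.1 ± 1.87 FPKM (SD, n = 3), with a log2 fold change of 0.29 (SE 0.10, 95% interval 0.061 to 0.52, adjusted p = 0.133). The fold change was 0.17 without MU1, and it was 0.37 among samples without and 0.16 among those with Y-linked transcripts. Suz12 spanned 18.8 to 23.8 FPKM in control and 19.9 to 24.6 FPKM in mutant samples (log2 fold change 0.058, -0.019 on the normalized counts). Eed, which overlaps Gm26529 on the other strand, spanned 6.36 to 7.20 FPKM and 5.48 to 7.13 FPKM (log2 fold change -0.099).

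Dnmt3a, a de novo DNA methyltransferase, was the highest of the 38 members. It had 101.5, 89.7, 91.4 and 100.5 FPKM in CT1 to CT4 and 96.1, 93.5 and 91.6 FPKM in MU1 to MU3. All mutant samples were within the control range, and the log2 fold change was -0.029 (95% interval -0.17 to 0.12). Its control level was 12.3-fold that of the maintenance enzyme Dnmt1, which spanned 6.80 to 8.30 FPKM in control and 6.15 to 8.05 FPKM in mutant samples (log2 fold change -0.096, 0.010 without MU2). Of the summed FPKM of the 3 methyltransferases, Dnmt3a made up 91.9% ± 0.343 (SD, n = 4) in CT and 92.3% ± 0.854 (SD, n = 3) in cMU nerves.

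Uhrf1, which brings Dnmt1 to newly copied DNA, spanned 2.58 to 3.99 FPKM and 2.91 to 3.76 FPKM (log2 fold change 0.055, -0.012 on the normalized counts). Dnmt3b, the other de novo enzyme, (ENSMUSG00000027478) lies on chromosome 2 from 153649450 to 153687730 on the plus strand. It was the lowest member, with 0.614, 0.577, 0.593 and 0.822 FPKM in CT1 to CT4 and 0.554, 0.546 and 0.526 FPKM in MU1 to MU3. The groups did not overlap, but CT4 was far above the rest and the other controls were just above the mutants. The means were 0.651 ± 0.115 FPKM (SD, n = 4) and 0.542 ± 0.0147 FPKM (SD, n = 3). The log2 fold change was -0.14 (SE 0.13, 95% interval -0.44 to 0.16, adjusted p = 0.554), at an estimated 51 reads in the lowest sample, and it was -0.071 without CT4.

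TET enzymes oxidise 5-methylcytosine. Tet3, the highest, had 18.5, 15.1, 16.1 and 18.2 FPKM in CT1 to CT4 and 20.4, 19.2 and 16.6 FPKM in MU1 to MU3. MU1 and MU2 were above all controls and MU3 was within them (log2 fold change 0.14, adjusted p = 0.413). It was 0.078 without MU1 and 0.088 without CT2, and 0.24 among samples without and -0.040 among those with Y-linked transcripts. Tet2 spanned 8.37 to 11.4 FPKM and 9.85 to 12.8 FPKM (log2 fold change 0.24, 95% interval -0.034 to 0.52, adjusted p = 0.256), with 0.21 and 0.17 within the sets without and with Y-linked transcripts. Tet1 spanned 6.18 to 8.13 FPKM and 6.63 to 8.01 FPKM (log2 fold change 0.074). The fold change of all 3 was positive with a median of 0.14, while 60.1% of all genes tested were also positive.

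The BET proteins bind acetylated histones. Brd2 had 83.5, 78.2, 78.3 and 80.9 FPKM in CT1 to CT4 and 87.1, 87.4 and 82.6 FPKM in MU1 to MU3. MU1 and MU2 were above all controls and MU3 was below CT1 (log2 fold change 0.094, 95% interval -0.029 to 0.22). Brd3 spanned 16.1 to 17.7 FPKM in control and 17.2 to 19.3 FPKM in mutant samples (log2 fold change 0.090).

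Kdm1a (LSD1), which demethylates histone H3, had 43.4, 42.4, 40.1 and 40.8 FPKM in CT1 to CT4 and 43.3, 41.7 and 40.5 FPKM in MU1 to MU3. The groups covered the same range, and the log2 fold change of 0.0057 (95% interval -0.12 to 0.14) took either sign among the settings. Kdm1a overlaps Luzp1 on the other strand. Yy1, a zinc finger protein that recruits deacetylases, had 22.5, 22.2, 19.9 and 20.9 FPKM in CT1 to CT4 and 23.9, 20.6 and 23.0 FPKM in MU1 to MU3. The groups overlapped (log2 fold change 0.071, -0.0056 on the normalized counts).

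Prmt5 (ENSMUSG00000023110) lies on chromosome 14 from 54507187 to 54517525 on the minus strand. Its product dimethylates arginines of histones and splicing proteins symmetrically. Prmt5 had 27.7, 27.0, 27.0 and 26.5 FPKM in CT1 to CT4 and 25.7, 23.1 and 25.6 FPKM in MU1 to MU3. The control samples were the tightest of any member, with a coefficient of variation of 1.80%, and the mutant samples were all below them. The means were 27.0 ± 0.487 FPKM (SD, n = 4) and 24.8 ± 1.496 FPKM (SD, n = 3), with a log2 fold change of -0.12 (SE 0.062, 95% interval -0.27 to 0.016, adjusted p = 0.254). It was -0.074 without MU2, and -0.16 among samples without and -0.063 among those with Y-linked transcripts.

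**Figure D3:**
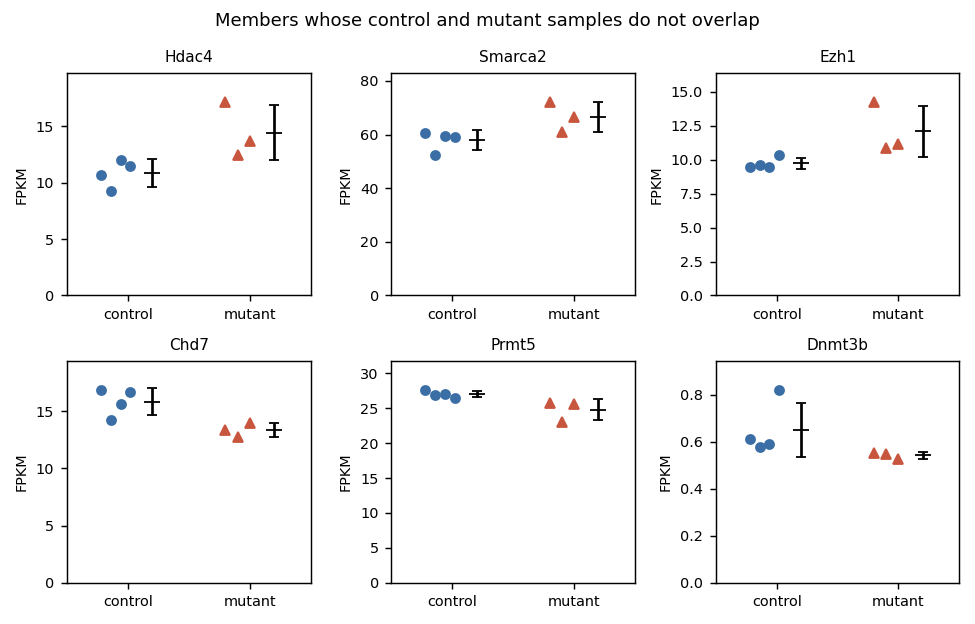
FPKM of the 6 members whose groups do not overlap, in each control sample (circles) and mutant sample (triangles), with black bars for the mean and SD and every axis starting at 0. Hdac4, Smarca2 and Ezh1 are higher and Chd7, Prmt5 and Dnmt3b lower in mutant samples, each with a gap between the groups smaller than the range within either.

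Ratios of related members within a sample do not depend on the scaling between samples, and 8 were compared, with the pairs chosen when earlier results were known. For 4 of them the groups were fully apart. The share of other gene pairs that are apart was not computed, so this count has no background. Each of the 4 ratios also holds a member whose own groups did not overlap (Smarca2, Hdac4, Ezh1 or Chd7). With 4 samples against 3, the two-sided exact permutation test cannot give less than 0.0571, so it cannot reach 0.05. Each of these 4 ratios had that p (0.114 after Benjamini-Hochberg adjustment over the 8).

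The log2 ratio of Smarca4 over Smarca2 was -1.29, -1.13, -1.15 and -1.19 in CT1 to CT4 and -1.56, -1.46 and -1.51 in MU1 to MU3. The gap between the groups was wider than the spread within either, and the difference was -0.32 (SE 0.046), with -0.30 and -0.34 within the sets without and with Y-linked transcripts. Expressed as a share of the summed FPKM of both ATPases, Smarca4 made up 30.2% ± 1.06 (SD, n = 4) in CT and 25.7% ± 0.635 (SD, n = 3) in cMU nerves.

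The log2 ratio of Hdac5 over Hdac4 was 2.52, 2.70, 2.48 and 2.72 in CT1 to CT4 and 1.98, 2.22 and 2.03 in MU1 to MU3. The groups were apart by more than the range within the mutants, and the difference was -0.53 (SE 0.096), with -0.51 and -0.57 within the sets without and with Y-linked transcripts.

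For Ezh2 over Ezh1 the log2 ratio was 1.28, 1.11, 0.92 and 1.007 in CT1 to CT4 and 0.36, 0.71 and 0.71 in MU1 to MU3. The groups were apart, with MU1 the lowest, and the difference was -0.49 (SE 0.14), or -0.66 without and -0.25 with Y-linked transcripts. Ezh2 made up 68.4% ± 2.39 (SD, n = 4) of the sum of both in CT and 60.4% ± 3.48 (SD, n = 3) in cMU nerves.

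For Chd7 over Chd8 the log2 ratio was -0.96, -0.91, -0.94 and -0.95 in CT1 to CT4 and -1.30, -1.31 and -1.12 in MU1 to MU3. The controls were nearly equal and all mutants lay below them, with a difference of -0.30 (SE 0.061), or -0.37 without and -0.18 with Y-linked transcripts.

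The other 4 ratios overlapped between the groups. The difference was -0.22 for Hdac1 over Hdac2 (exact permutation p = 0.171, adjusted p = 0.274), 0.0077 for Crebbp over Ep300 (p = 0.686), 0.067 for Dnmt3a over Dnmt1 (p = 0.686) and 0.0045 for Brd2 over Brd3 (p = 0.800), all log2 and two-sided. Crebbp over Ep300 varied least, with an SD of 0.027 in control and 0.031 in mutant samples.

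**Figure D4:**
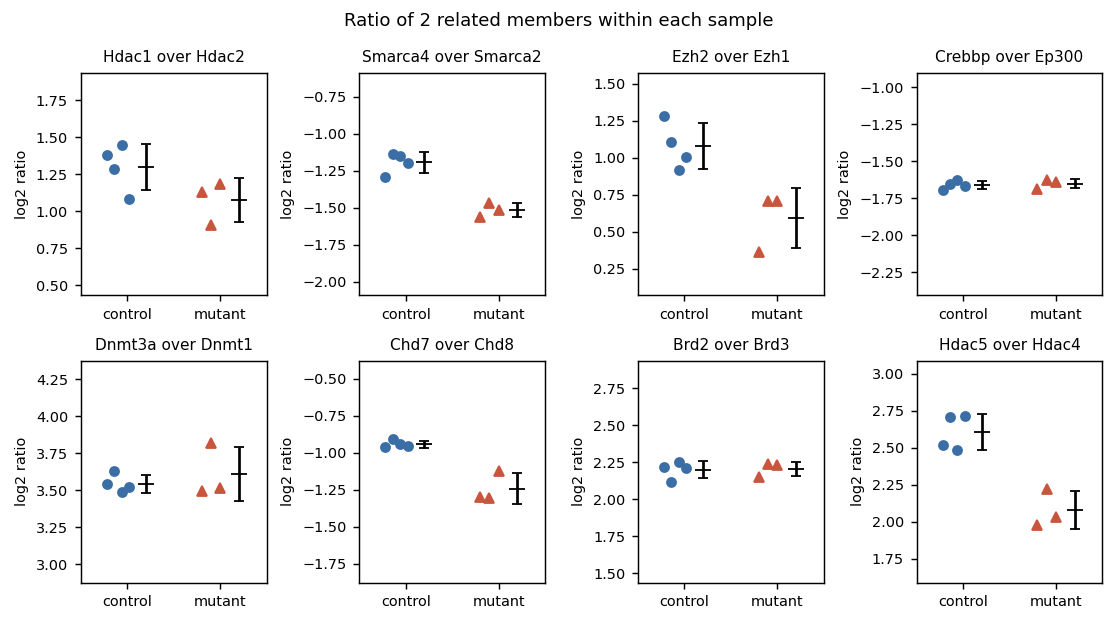
Log2 ratio of FPKM of 2 related members within each control sample (circles) and mutant sample (triangles), with black bars for the mean and SD and axes of equal span. Smarca4 over Smarca2, Ezh2 over Ezh1, Chd7 over Chd8 and Hdac5 over Hdac4 separate the groups, with lower mutant values, and the other 4 ratios overlap.

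A wider list of 144 chromatin genes in 10 groups held 141 in the table and 140 tested. Of these, 1 passed the adjusted threshold (0.714%, against 2.62% of all genes), and at an unadjusted p under 0.05 there were 9 higher (6.43%, against 15.9% of all genes) and 11 lower (7.86%, against 8.5%). With the replicate block 3 passed, Bcl7a, Smarca1 and the Polycomb gene Cbx7, where 8.36% of all genes did. The median log2 fold change was 0.055. The gene that passed was Bcl7a, a SWI/SNF subunit, with 19.8, 19.0, 19.8 and 21.2 FPKM in CT1 to CT4 and 14.5, 15.9 and 14.5 FPKM in MU1 to MU3. All mutant samples were well below all controls (log2 fold change -0.40, standard error 0.068, adjusted p = 0.0290). The adjusted p was 0.0246 on the normalized counts, 0.0408 with the replicate block and between 0.0294 and 0.109 with 1 sample left out, where it passed only without MU2.

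Among the 21 other SWI/SNF subunits, 7 were lower and 0 higher at an unadjusted p under 0.05 in limma-trend, against 8.5% and 15.9% of all genes, and Bcl7a alone passed the adjusted threshold. Their median log2 fold change was -0.037, and their summed level was 452 to 461 FPKM in control and 437 to 447 FPKM in mutant samples. The 7 were singled out after their values were seen. Besides Bcl7a they were Dpf1, Actl6a, Brd9, Ss18, Smarcd1 and Dpf2, with log2 fold changes from -0.37 to -0.14. Of 18 deacetylase corepressor partners, 2 were higher and 2 lower at that level, as were 2 and 2 of 21 other Polycomb genes. Of 15 other CHD, ISWI and INO80 remodelers 3 were higher and 0 lower, and the closest to the threshold was the X-linked ISWI ATPase Smarca1, also named after its value was seen (log2 fold change 0.50, adjusted p = 0.0507), which passed with the replicate block (adjusted p = 0.0329). Cbx7 had a log2 fold change of 0.38 (adjusted p = 0.135, and 0.0351 with the block) and was named for that call.

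Among 10 other acetyltransferases and 13 histone demethylases in the table, 1 each was higher at an unadjusted p under 0.05 and 0 lower. Of 18 histone methyltransferases, 7 arginine methyltransferases, 10 bromodomain readers and 7 tested readers or repair proteins of methylated DNA, 0 reached an unadjusted p under 0.05 in limma-trend. Dnmt3l, the catalytically inactive cofactor of de novo methylation, was listed at 0 in every control sample.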

How the data were processed

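Poly-A RNA from optic nerves of 7 mice was made into stranded libraries and read from 1 end. The authors cleaned the reads, aligned them to GRCm38 with STAR 2.5.1b and estimated gene levels with RSEM 1.2.22. They deposited 1 table with a normalized count per gene and sample, a signal scaled by a size factor whose method is not given in the sources used here, and an FPKM value that the authors derived with gene length. The table also holds the authors' own fold changes and p-values, which were not used. Whether counting used the strand is not stated. A count model had been planned if counts were given. None were, and 78.8% to 83.6% of low values came out whole (within 0.1) after division by the value of 1 read, so no count test was run. The recovered totals gave the depth.

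Differences were tested with limma 3.58.1 (limma-trend, R 4.3.3) on log2(FPKM + 0.5), for genes that reached an FPKM of 0.5 in 3 or more samples, with genotype alone in the model and adjustment by Benjamini-Hochberg over 13866 genes (two-sided, threshold 0.05). This scale understates the change of low genes. The labels do not say what separates replicates beyond their numbers, so p-values measure the spread between these mice. Same-numbered control and mutant samples deviated together (correlations across genes of 0.168, 0.409 and 0.270). CT4 and MU1 also did (0.205), more than CT1 and MU1, and the remaining pairs ran from -0.353 to 0.0371. The labels give no pairs. The number was taken to pair the mice, as an assumption, and was added as a block in a further fit. No mutant has the number of CT4, so CT4 is alone in its block and does not enter the fold changes of that fit. Ratios were tested by exact permutation over 35 arrangements with scipy 1.17.1. The steps were tested on simulated data.

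The members and lists were chosen with earlier results of these data known. Every member is named. Members whose groups do not overlap have full statistics, class leaders by control FPKM have values per sample, and of other chromatin genes those past the threshold are named. Alternatives were other pseudocounts and filters, median centring, normalized counts, no variance trend, the block, Y-linked expression as a term (chosen after seeing the data) and leaving out each sample. Promoter windows come from RefSeq (GRCm38.p6), the first listed for each gene.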

Additional observations from a re-analysis of the deposited data

Results flagged for a closer look

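Among the 4 control samples, 1 sample stood apart from the other 3 for 5 members, with a gap to its nearest neighbour that took up more of the control range than Dixon's test allows. Hdac1 was lowest in control sample 4, at 58.0 FPKM (gap over range 0.956). Eed was highest in control sample 1, at 7.20 FPKM (0.920). Smarca2 was lowest in control sample 2, at 52.4 FPKM (0.862). Ezh1 and Dnmt3b were highest in control sample 4, at 10.3 FPKM (0.836) and 0.822 FPKM (0.835). The test was made in 46 control groups, 38 members and 8 ratios, and chance marks about 1 in 20. Without control sample 4 the log2 fold change of Hdac1 was -0.36, and without mutant sample 2 it was -0.15, with an adjusted p between 0.115 and 0.462 when any 1 sample was left out.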

How the results depend on the processing

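Of the 38 members, 26 kept the direction of their fold change under every alternative run for them, 14 lower and 12 higher. There were 16 alternatives, or 15 for Dnmt3b, which the stricter filter removes. The other 12 members did not keep their direction, none with a log2 fold change over 0.096 in size. The changed filters and variance trend could not turn a sign, as they leave the fold change itself unchanged. The block gives the same fold changes as leaving out CT4. The sets without and with Y-linked transcripts were not among the alternatives. Between them the sign differed for Hdac2 (-0.12 and 0.074), Hdac5 (0.022 and -0.36) and Tet3 (0.24 and -0.040), which are among the 26. On the normalized counts the sign turned for Hdac7 (-0.0017), Hdac6 (-0.048), Arid1a (-0.074), Chd8 (-0.013), Suz12 (-0.019), Uhrf1 (-0.012), Kdm1a (-0.072) and Yy1 (-0.0056), the median of the members was -0.073 and Chd7 passed, 1 member. Median centring gave -0.015 for Hdac6, -0.038 for Arid1a and -0.037 for Kdm1a. The replicate block gave 0.0070 for Hdac10, 0.023 for Ep400 and -0.0046 for Kdm1a, 1159 genes past the threshold against 363 and 3 other chromatin genes against 1, and no member passed. Y-linked expression as a term gave 0.0094 for Ep400, -0.0074 for Kdm1a and 203 genes. There were 95 genes with no filter on low values and 57 genes and 0 other chromatin genes without the variance trend, and a stricter filter gave 2 other chromatin genes. With each sample left out in turn, the count ran from 6 genes, when CT3 or MU3 was left out, to 907, when MU2 was, with 60, 15, 117 and 186 for CT1, CT2, CT4 and MU1, and that of other chromatin genes from 0 to 3. Over the same fits the sign turned, within these ranges, for Hdac3 (-0.10 to 0.0026), Hdac7 (-0.022 to 0.22), Hdac6 (-0.026 to 0.10), Hdac10 (-0.079 to 0.040), Arid1a (-0.083 to 0.068), Ep400 (-0.062 to 0.035), Suz12 (-0.018 to 0.13), Dnmt1 (-0.17 to 0.010), Uhrf1 (-0.037 to 0.15), Kdm1a (-0.020 to 0.029), the ratio of Crebbp over Ep300 (-0.0055 to 0.025), the ratio of Dnmt3a over Dnmt1 (-0.038 to 0.12) and the ratio of Brd2 over Brd3 (-0.024 to 0.033). The cause of these shifts was not tested. The precision rests on 7 mice, with 95% intervals of 0.12 to 0.36 on either side of a fold change (log2). Differences smaller than their own interval could not be detected. The intervals are not adjusted for the number of genes tested, so larger differences can also be missed. In limma-trend, Hdac4 at 0.39 (adjusted p = 0.112) and Smarca1 at 0.50 (adjusted p = 0.0507) did not pass.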
